A study of Homo sapiens with 24 samples.

Results

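SW1222 is an established human colorectal cancer cell line. The comparison described here set 3 arrays of SW1222 cells carrying a DPPA3 shRNA against 3 arrays of SW1222 cells carrying a control shRNA. These 6 arrays, chosen by their sample titles, were all the shRNA arrays among the 24 arrays of the study. Both shRNA lines were cultured in 3D as megacolonies embedded in Matrigel, in air at 21% oxygen, and neither received doxycycline. The labels give 1 line per shRNA and no hairpin sequence, so line, hairpin and DPPA3 loss cannot be told apart here. The labels number the replicates 1 to 3 and do not say whether each was its own culture. A p-value here therefore speaks only of the spread among arrays of a group, pooled over all 24 arrays. That spread may be technical. Every gene with a probe set assigned to it alone was read, 17448 genes in all. Tests were 2-sided and made with limma, a linear model that moderates each gene's variance across all genes, with Benjamini-Hochberg adjustment over all genes, and passing means an adjusted p under 0.05.

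For comparison, the study's other untreated 3D lines were used: a scrambled guide RNA line (2 arrays) and the DPPA3 CRISPR clones 66 and 75 (2 arrays each), each of which is a single clone. The gain-of-function arrays were also used, namely a DPPA3-inducible line and its control, 3 arrays each, given doxycycline for 5 days in 3D or 4 hours in 2D. Both of these lines received doxycycline, and neither has untreated arrays here. Line and induction therefore cannot be told apart, and induction below means the inducible line over its control line. These 18 arrays entered the shRNA comparison through the shared estimate of the spread and the choice among probe sets of a gene, and possibly through the authors' normalization, but not through the group means.

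DPPA3, also called STELLA or PGC7, is a small protein of oocytes, early embryos and primordial germ cells. It is known for binding UHRF1, the factor that brings the maintenance methyltransferase DNMT1 to replicating DNA, and so for limiting DNA methylation. An shRNA is a short hairpin transcript that the cell's own machinery cuts into a small interfering RNA, which lowers the RNA it matches. SW1222 cells are known for forming crypt-like structures with a lumen in 3D culture, with cells that differentiate along intestinal lines.

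Only 15 genes passed between the shRNA groups, 0.086% of those tested, of which 6 were higher (0.0344%) and 9 lower (0.0516%) with the DPPA3 shRNA. The higher genes were A2ML1, PTGDR, RPE65, PLA2G2A, GCNT3 and CEACAM5, and the lower ones LPL, MYL3, CLDN1, LY6G6D, CCDC28A, CTSS, APLF, RNASE1 and PTPRO. Changes were small: A2ML1 and LPL were the only genes that both passed and changed at least 2-fold, and the smallest passing change was 0.47 on the log2 scale. At an unadjusted p under 0.05 there were 917 genes or 5.26% of those tested. Array values did not overlap between the groups for 1882 genes (10.8%), so a lack of overlap alone sets no gene apart.

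Because DPPA3 is known for its effect on DNA methylation, the DNA just before the start of 3 of these genes is shown, with each CG, the pair of bases that is methylated, in capitals. The windows are the 250 bases before the RefSeq gene start on build GRCh38.p14, read 5′ to 3′ on the gene's strand. CEACAM5 (higher; chr19:41708376-41708625, plus strand) held 2 CG and LY6G6D (lower; chr6:31715098-31715347, plus strand) held 4, whereas CLDN1 (lower; chr3:190322447-190322696, minus strand) held 28.
CEACAM5: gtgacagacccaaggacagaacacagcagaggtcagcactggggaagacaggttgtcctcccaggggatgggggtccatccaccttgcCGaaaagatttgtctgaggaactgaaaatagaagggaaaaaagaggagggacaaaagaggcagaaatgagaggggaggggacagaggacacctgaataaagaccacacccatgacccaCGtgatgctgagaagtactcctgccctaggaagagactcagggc
LY6G6D: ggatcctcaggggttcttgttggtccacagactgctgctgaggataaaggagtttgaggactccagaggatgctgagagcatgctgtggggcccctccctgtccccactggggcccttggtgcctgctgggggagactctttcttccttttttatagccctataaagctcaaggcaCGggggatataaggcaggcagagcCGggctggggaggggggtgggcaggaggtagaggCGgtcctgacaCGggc
CLDN1: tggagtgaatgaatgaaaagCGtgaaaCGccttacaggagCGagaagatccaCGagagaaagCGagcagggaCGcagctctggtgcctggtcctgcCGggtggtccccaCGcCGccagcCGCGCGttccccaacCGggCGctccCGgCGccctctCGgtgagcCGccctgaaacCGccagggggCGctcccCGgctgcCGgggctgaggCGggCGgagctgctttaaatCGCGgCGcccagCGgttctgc
Over 35097 such windows of all RefSeq genes the median was 11 CG, with quartiles at 3 and 23. Windows were listed for 13 of the 15 genes, 19 windows in all, and 13 of the 19 held fewer CG than that median. The motif ACGTG, the core that HIF transcription factors bind, was searched on both strands (ACGTG or CACGT). It was found in 5 of the 19 windows, those of A2ML1, CEACAM5 and RNASE1 and a pair of overlapping PLA2G2A windows, and in 18.5% of all windows. DNA methylation and factor binding were not measured on these arrays.

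The DPPA3 probe set itself read near the bottom of the range in both groups. Its log2 signal was 2.71, 3.13 and 2.77 with the DPPA3 shRNA and 2.80, 2.78 and 3.15 with the control shRNA, and the groups overlapped. Between 20.2% and 30.5% of genes were dimmer than DPPA3 on each of the 6 arrays. The log2 fold change was -0.04 (SE 0.31, 95% CI -0.67 to 0.59, limma adjusted p = 0.9996). A loss of DPPA3 RNA could therefore not be measured at this signal. The RefSeq gene table also lists several DPPA3 pseudogenes, whose RNA the probe set may share. UHRF1 (0.09), the binding partner of DPPA3, and DNMT1 (0.06), the maintenance methyltransferase, had log2 fold changes inside their error (limma adjusted p = 0.9996 for both).

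The 6 arrays had medians of 4.09 to 4.13 log2 units. Across genes, which are not independent replicates, arrays of one group correlated at r = 0.991 to 0.993 and arrays of opposite groups at r = 0.990 to 0.993. Log2 fold changes had a median SE of 0.12, and the number of arrays limits this precision. The labelled tissue was checked against its markers: 13 of 14 measured colon epithelium markers lay above the median of all genes, and the mean log2 signal of the list was 8.46 to 8.67 with the DPPA3 shRNA and 8.50 to 8.55 with the control. Markers of fibroblasts (17 genes, 2.76 to 2.87 against 2.79 to 2.90), leukocytes (11 genes, 3.04 to 3.20 against 2.97 to 3.03) and endothelium (8 genes, 2.90 to 3.01 against 2.95 to 2.96) lay low in both groups. Of these 3 lists no member passed, and PTPRC, which marks all leukocytes, read 2.12 with the DPPA3 shRNA and 2.05 with the control. COL1A1 (fibroblast), CD68 and NKG7 (leukocyte) and CLDN5 (endothelium) lay above the median of all genes. CD68 read 5.283 with the DPPA3 shRNA and 4.975 with the control. Log2 fold changes were above 0 for 10 of 11 leukocyte, 5 of 17 fibroblast and 4 of 8 endothelial members. In such bulk samples, fewer cells of a type and less RNA per cell cannot be told apart.

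**Figure D1:**
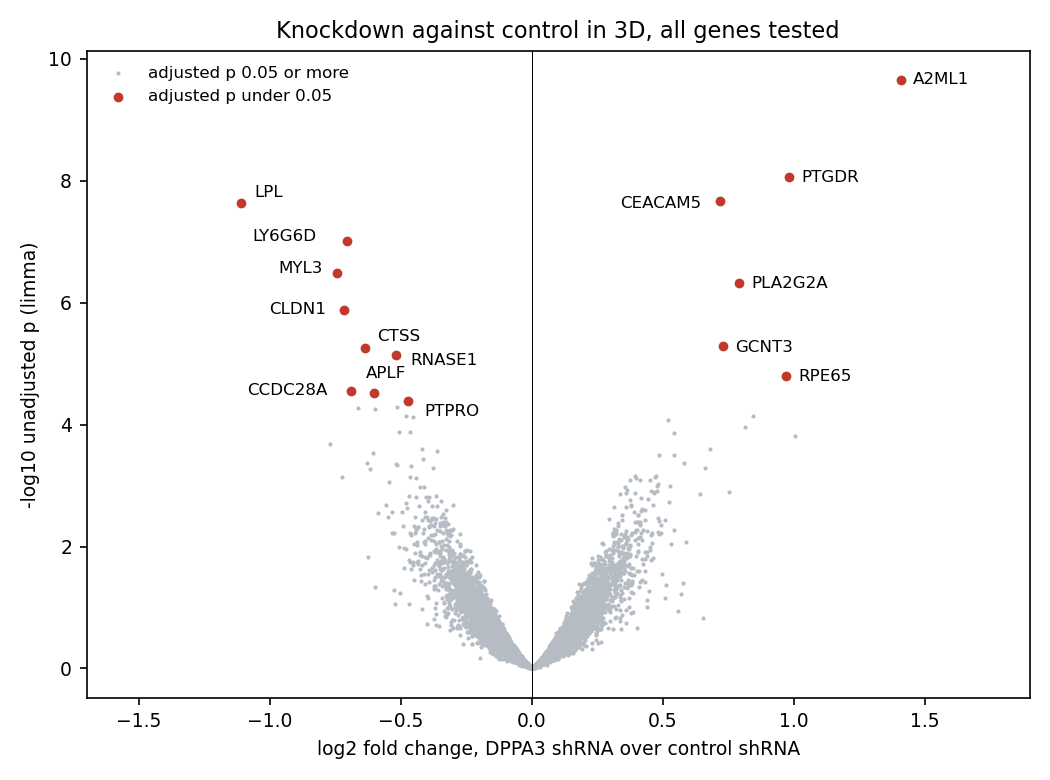
Each point is 1 of 17448 genes, with its log2 fold change (DPPA3 shRNA over control shRNA) across and -log10 of the unadjusted limma p upward; red points passed at an adjusted p under 0.05. A2ML1 lies farthest to the right at 1.41 and LPL farthest to the left at -1.11, and the lowest red points run on into the grey ones without a gap.

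Among the higher genes, A2ML1 moved most. A2ML1 encodes a secreted protease inhibitor of the alpha-2-macroglobulin family, best known from skin. It read 6.11, 5.73 and 5.72 with the DPPA3 shRNA against 4.52, 4.15 and 4.66 with the control. The lowest DPPA3 shRNA array was thus above the highest control array by more than the range within either group. The log2 fold change was 1.41 (SE 0.14, 2.65-fold, limma adjusted p = 3.9e-06).

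The secreted phospholipase A2 PLA2G2A, which releases fatty acids from phospholipids and is also an antibacterial protein of the gut, was also higher. It read 10.37, 10.53 and 10.57 with the DPPA3 shRNA and 9.69, 9.73 and 9.69 with the control. The control arrays were nearly equal, and all DPPA3 shRNA arrays were higher. The log2 fold change was 0.79 (SE 0.12, 1.73-fold, limma adjusted p = 0.0012). PTGDR, a receptor for prostaglandin D2, read 4.50, 4.40 and 4.73 against 3.40, 3.60 and 3.69 in the control, for a log2 fold change of 0.98 (SE 0.12, 1.97-fold, limma adjusted p = 7.7e-05). Both gene products act in lipid mediator biology, the first on fatty acid release and the second as a receptor. No list of lipid mediator genes was read, so a shared theme was not tested.

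CEACAM5, the carcinoembryonic antigen found on the surface of differentiated colon cells, read 9.03, 9.21 and 9.19 with the DPPA3 shRNA and 8.39, 8.50 and 8.39 with the control. The groups were separated by more than the range within either. The log2 fold change was 0.72 (SE 0.09, 1.65-fold, limma adjusted p = 0.0001). GCNT3, a glycosyltransferase that branches the sugar chains of mucins, read 7.04, 6.80 and 6.77 against 6.41, 5.95 and 6.06. Its log2 fold change was 0.73 (SE 0.13, limma adjusted p = 0.0096), and control replicate 1 lay closest to the DPPA3 shRNA arrays. RPE65, the isomerase of the retinal visual cycle, read 5.89, 5.81 and 5.50 against 4.70, 4.97 and 4.62 in the control, for a log2 fold change of 0.97 (SE 0.18, limma adjusted p = 0.024).

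LPL was lower as well. It encodes lipoprotein lipase, which frees fatty acids from circulating triglycerides. It read 2.96, 3.38 and 3.37 with the DPPA3 shRNA and 4.48, 4.42 and 4.14 with the control, with the groups well apart. The log2 fold change was -1.11 (SE 0.14, limma adjusted p = 0.0001). The DPPA3 shRNA readings lay near those of DPPA3 itself and of the fibroblast and leukocyte marker lists, so the size of the change may be understated. By their mean over all 24 arrays, A2ML1, PTGDR and LPL lay below the median of all genes.

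At the cell surface, LY6G6D and CLDN1 were lower. LY6G6D is a GPI-anchored protein of the Ly6 family that is known to be raised in colorectal cancer. It read 7.47, 7.71 and 7.50 with the DPPA3 shRNA and 8.28, 8.25 and 8.27 with the control, so the control arrays were nearly equal and all above. The log2 fold change was -0.71 (SE 0.10, limma adjusted p = 0.00034). The array carried 3 probe sets for LY6G6D, with log2 fold changes of -0.71, -0.71 and -0.72, and each passed. The first 2 hold identical values and are 1 reading. CLDN1 encodes claudin-1, a sealing protein of tight junctions. Its signal was 4.90, 4.86 and 4.76 against 5.49, 5.52 and 5.68 in the control, giving a log2 fold change of -0.72 (SE 0.11, limma adjusted p = 0.0029). PTPRO, a receptor-type tyrosine phosphatase, read 4.91, 4.72 and 4.83 against 5.25, 5.31 and 5.32, and fell by 0.47 on the log2 scale (SE 0.10, limma adjusted p = 0.048).

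The other lower genes have varied roles. RNASE1, a secreted ribonuclease, read 9.58, 9.63 and 9.65 with the DPPA3 shRNA and 10.13, 10.12 and 10.18 with the control, a log2 fold change of -0.52 (SE 0.09, limma adjusted p = 0.011). CTSS, the lysosomal cysteine protease cathepsin S, read 5.10, 5.38 and 5.17 against 5.89, 5.91 and 5.76 in the control, for a log2 fold change of -0.64 (SE 0.11, limma adjusted p = 0.0096). In both genes the groups did not overlap. MYL3, a myosin light chain of heart and slow muscle, read 6.03, 6.09 and 6.11 against 6.84, 6.78 and 6.84. Its log2 fold change was -0.74 (SE 0.11, limma adjusted p = 0.00096), with a gap between the groups many times the range within them. APLF, a DNA end-joining repair factor, read 4.94, 4.90 and 4.59 against 5.54, 5.52 and 5.17 (log2 fold change -0.60, SE 0.12, limma adjusted p = 0.038), with the third replicate lowest in both groups. CCDC28A, a coiled-coil protein, read 4.45, 4.46 and 4.24 against 4.96, 5.14 and 5.13 (log2 fold change -0.69, SE 0.14, limma adjusted p = 0.037).

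**Figure D2:**
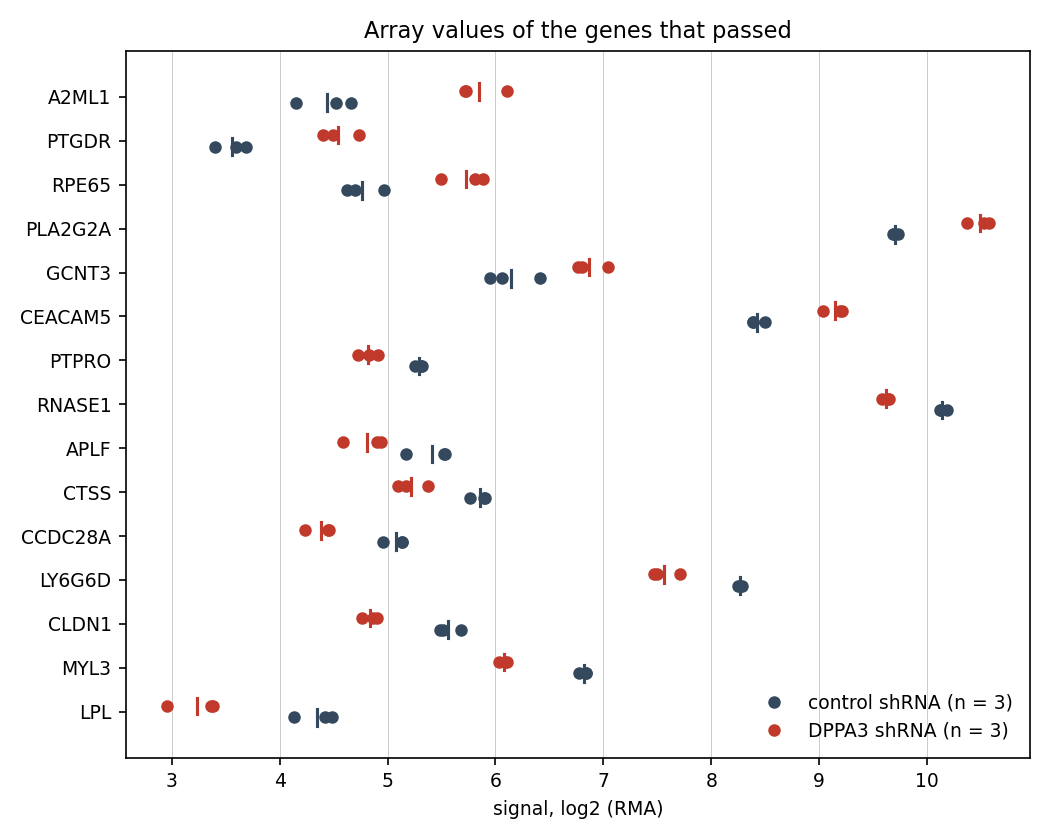
Log2 signal (across) of the 15 genes that passed, 1 point per array, with a vertical bar at each group mean (n = 3 per group). In every gene the 3 DPPA3 shRNA arrays (red) and the 3 control shRNA arrays (blue) do not overlap, as in 10.8% of all genes. The genes were chosen by a test on these same arrays, so their separation is no further evidence. Levels of different genes are not comparable with each other, since each has its own probes.

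Leaving out 1 array at a time gave 8 to 12 passing genes, 8 without DPPA3 shRNA replicate 1 and 9 without control shRNA replicate 2. A2ML1, PTGDR, PLA2G2A, CEACAM5, LY6G6D, CLDN1, MYL3 and LPL passed in each of these fits and in every other alternative that tested them (highest limma adjusted p = 0.043, CLDN1). With arrays weighted by their agreement with the model, 26 genes passed, the 15 among them. PTPRO, RNASE1 and CCDC28A missed the threshold whichever of the 6 arrays was left out (limma adjusted p up to 0.30, 0.097 and 0.29), and APLF unless control replicate 3 was the one left out (up to 0.32). RPE65 missed it without control replicates 1 or 3 or DPPA3 shRNA replicates 1 or 2 (up to 0.17). GCNT3 missed it without control replicates 2 or 3 or DPPA3 shRNA replicate 1 (up to 0.15), and CTSS without control replicates 1 or 2 or DPPA3 shRNA replicates 1 or 3 (up to 0.10). In a limma fit of the 6 shRNA arrays alone, PTPRO, APLF, GCNT3, RNASE1 and CTSS missed it (adjusted p = 0.23, 0.27, 0.12, 0.12 and 0.079), and with a trended and robust prior PTPRO and APLF did (0.10 and 0.051).

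Just outside the threshold lay TGFBI, a secreted matrix protein (log2 fold change -0.51), TFF3, the trefoil peptide of goblet cells (-0.67), and MT1F, a metallothionein (-0.60), each with a limma adjusted p of 0.053. TFF3 read 8.43, 8.52 and 8.44 with the DPPA3 shRNA against 9.11, 9.13 and 9.13 with the control, without overlap. It passed under 5 of the alternatives. Next came HSD3B1, a steroid dehydrogenase (-0.48), UCA1, a long non-coding RNA (0.84), and PHYH, a peroxisomal fatty acid hydroxylase (-0.46), at 0.062. CST1, a secreted cystatin, was the third of the 3 genes (0.0172%) that changed at least 2-fold. Its DPPA3 shRNA arrays stood at 9.21, 8.96 and 8.59 and its control arrays at 8.28, 7.75 and 7.73, for a log2 fold change of 1.002 (SE 0.22) with a limma adjusted p of 0.10, and its groups did not overlap.

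Gene lists for the pathways and cell types of interest held 955 measured genes in 35 lists. Of these 955 genes, 3 passed (0.314%, against 0.086% of all genes): CEACAM5, PLA2G2A and CLDN1. PLA2G2A was counted only through a list of line and clone markers chosen on these same arrays. The share of 0.314% is therefore no independent evidence. Over all genes the median log2 fold change was -0.00061, and 2.53% of genes were higher and 2.72% lower at an unadjusted p under 0.05. The counts and medians below are read against those values and were not tested as sets.

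HIF target genes, which hypoxia-inducible factors switch on when oxygen is low, had the lowest median log2 fold change of the 35 lists. Of 45 measured members 37 were below 0 and 8 above, with a median of -0.12. None passed, and 9 were lower and 1 higher at an unadjusted p under 0.05. The lowest was ANKRD37, an ankyrin-repeat HIF target, with a log2 fold change of -0.56 (SE 0.16, limma adjusted p = 0.42). The closest to passing was CA12, a membrane carbonic anhydrase, which read 7.03, 6.92 and 6.64 against 7.42, 7.38 and 7.32 without overlap (log2 fold change -0.51, SE 0.11, limma adjusted p = 0.091). CA12 passed under 2 of the alternatives. The other 7 lower members, named after their values were seen, were glycogen branching enzyme GBE1 (-0.47), the glycolytic genes HK2 (-0.39), PFKFB4 (-0.35) and PGK1 (-0.27), the pyruvate dehydrogenase kinase PDK1 (-0.33), the angiogenic factor VEGFA (-0.29) and the prolyl hydroxylase P4HA1 (-0.27). The 1 higher member was JMJD6 (0.29). The list's median stayed below 0 under each of the 14 alternatives, from -0.18 without DPPA3 shRNA replicate 1 to -0.05 without DPPA3 shRNA replicate 3.

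Of the HIF subunits and oxygen sensors themselves, none of 21 passed or reached an unadjusted p under 0.05, and their median was -0.02. HIF1A, the oxygen-regulated subunit, had a log2 fold change of 0.01 (limma adjusted p = 0.9996). HIF activity is set mainly by protein stability, which these arrays do not measure. With DPPA3 induced for 5 days in 3D, against its own control arrays, 11 of the same 45 HIF targets were higher past the threshold. Of all genes 2.93% were. The 1 member lower past it was ANKRD37 (-0.605), against 2.77% of all genes, and the median was 0.29. For the mean of the CRISPR clones the median was -0.02, and 0 members passed (0.321% of all genes did).

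Cell division genes lay slightly above 0. Of 47 genes of S phase and DNA replication 34 were above 0, with a median log2 fold change of 0.09, and 4 were higher and 0 lower at an unadjusted p under 0.05 (POLD3, CDC6, GINS1 and MCM4, from 0.34 to 0.27). Of 52 genes of G2 and mitosis 40 were above 0, with a median of 0.08, and 2 were higher and 0 lower (KIF20A, a mitotic kinesin, at 0.42 and KIFC1 at 0.30). No member of either list passed. The log2 fold changes of MKI67, the Ki-67 proliferation antigen, and of CDKN1A, the p21 inhibitor of cell cycle kinases, were 0.07 and 0.12 (limma adjusted p = 0.9996 for both). In the 5-day induction, 20 and 29 members of these lists were lower past the threshold (2.77% of all genes were) and none higher. The medians there were -0.38 and -0.38. For the mean of the CRISPR clones the medians were also below 0, at -0.07 and -0.13. Of the members, 1 and 0 passed there (0.321% of all genes did).

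Intestinal differentiation genes lay on both sides of 0. Of 38 absorptive enterocyte genes 1 passed, CEACAM5, and the median was 0.02. Brush border and transport genes with an unadjusted p under 0.05 were DPP4, a surface peptidase (0.48), SLC26A3, the chloride exchanger (0.45), MYO1A, a brush border myosin (0.39), and CA2, a carbonic anhydrase (0.34), while MEP1A, a brush border protease, was at -0.36. Goblet and enteroendocrine genes (39 measured, none passed, median 0.01) were split, with 4 higher and 3 lower at that level. The trefoil peptides TFF3 (-0.67) and TFF1 (-0.39) were on the lower side, and SPINK4 (0.42), MUC1 (0.33) and the goblet regulator SPDEF (0.30) on the higher. Of 27 Wnt target and stem cell genes none passed (median 0.00). DKK1, a secreted Wnt inhibitor, was highest at 0.49, LRIG1 lowest at -0.28, and the stem cell receptor LGR5 had a log2 fold change of -0.26 (unadjusted p = 0.026, limma adjusted p = 0.82).

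CLDN1 was the only one of 27 claudin and junction genes to pass, and the list's median was 0.02. P-cadherin CDH3 had the highest value (0.27), and the tight junction scaffold CGN (-0.28) was the other lower member at an unadjusted p under 0.05. Integrins, laminins and their partners (24 genes, none passed, median 0.04) ranged from ITGA5 (-0.48) to LAMA5 (0.23).

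The inflammatory, unfolded protein and imprinted lists had no passing member. Of 37 NF-kappaB and inflammatory genes 18 were above 0 and 19 below, and 5 were lower and 0 higher at an unadjusted p under 0.05, namely the complement factor CFB (-0.44), the chemokines CCL20 (-0.41) and CXCL6 (-0.26), and the cytokines IL1B (-0.39) and IL1A (-0.38); the median was -0.01. Of 32 unfolded protein and integrated stress response genes 24 were below 0 (median -0.06) and 4 were lower at that level, with DNAJB9, an ER chaperone partner, lowest at -0.46. Of 25 imprinted genes 18 were below 0 (median -0.06) and 3 were lower, MAGEL2 (-0.41), MEST (-0.38) and PLAGL1 (-0.25).

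Hairpin RNA can in principle be sensed as double-stranded RNA and loads the small RNA machinery, so the genes of both responses were read. Among 41 interferon-stimulated genes none passed, 1 was higher (HERC6, 0.29) and 1 lower (ISG15, -0.34) at an unadjusted p under 0.05, and the median was -0.0027. Of 16 genes of small RNA processing and RNA interference none passed. TNRC6C, a partner of Argonaute proteins, had the highest value (0.37, limma adjusted p = 0.38).

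DNA methylation is known to hold many germline genes silent in other cells. None of 38 germline and cancer-testis genes passed (median -0.02, highest TEX14 at 0.25, lowest PAGE2 at -0.27). None of 31 pluripotency and early germ cell genes passed (median 0.03), nor any of 25 genes of the DNA methylation machinery (median 0.00, from UHRF2 at -0.23 to TDG at 0.22). For these 3 lists, 1 gene in all had an unadjusted p under 0.05.

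In metabolism, the NRF2 and aldo-keto reductase list (25 genes, none passed, median 0.01) had AKR1C2 (0.53), AKR1B10 (0.43) and heme oxygenase HMOX1 (0.41) on the higher side and the cystine transporter SLC7A11 (-0.26) on the lower, at an unadjusted p under 0.05. Oxidative phosphorylation (46 genes) and the ribosome biogenesis and MYC list (32 genes) had medians of 0.01 and 0.01, with 0 and 1 members at that level. Sterol and fatty acid synthesis (28 genes, median 0.01) ran from SC5D (-0.31) to ACACA (0.25). The BMP pathway list (24 genes, none passed, median -0.01) had its inhibitors SMURF1 (-0.45) and NOG (-0.28) on the lower side, together with ID3 (-0.27). SMAD1 (0.27) and ID4 (0.37) were on the higher. SMURF1 was also higher in the control shRNA line than in the scrambled guide line (0.83, limma adjusted p = 0.017).

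The remaining lists had no passing member. Their medians were 0.03 for CDK inhibitors and quiescence genes (27 genes), -0.01 for p53 targets (25), 0.05 for homologous recombination and Fanconi genes (24), -0.03 for antigen processing (13) and 0.02 for immediate early genes (26). They were 0.00 for the aryl hydrocarbon receptor list (11), 0.03 for drug transport (30) and -0.03 for clustered histones (44). Their most extreme members were TIGAR (0.35) among p53 targets and BBC3 (-0.33) in the same list.

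**Figure D3:**
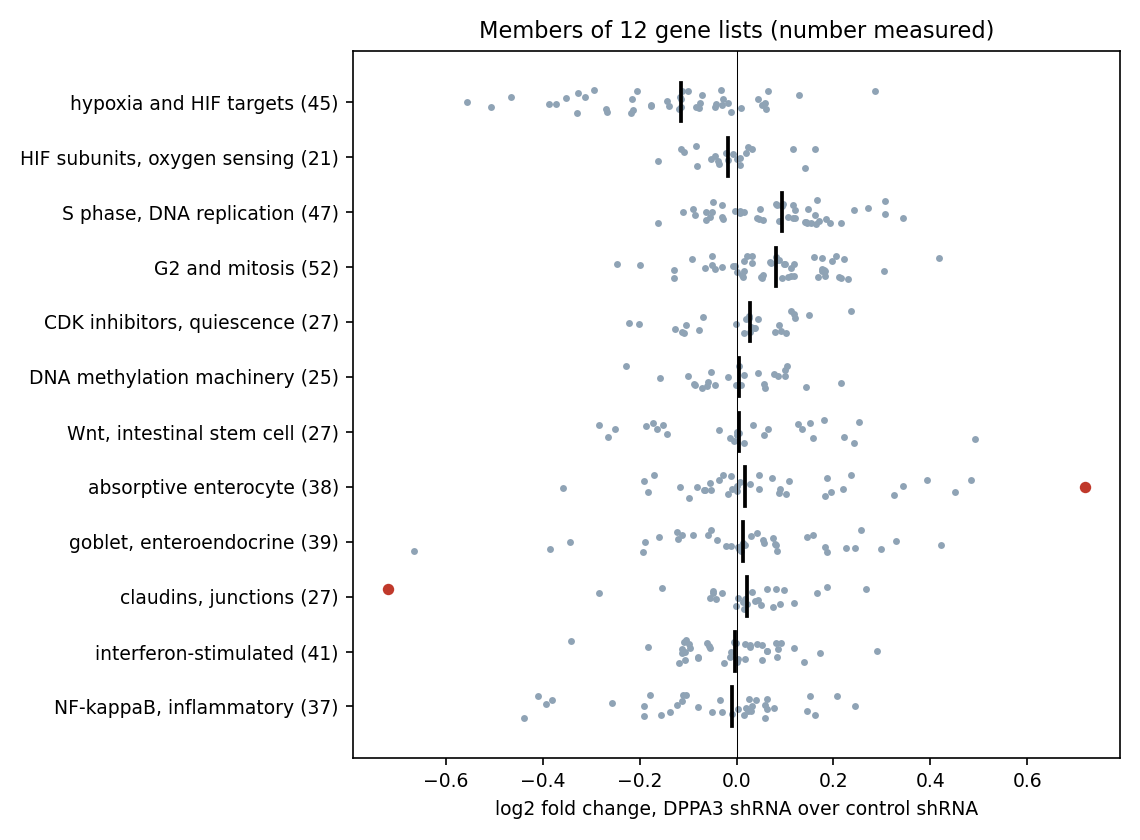
Log2 fold change (DPPA3 shRNA over control shRNA) of the measured members of 12 gene lists, 1 point per gene, with a black bar at each list's median and the number measured in brackets. HIF targets have a median of -0.12 and the S phase and G2 lists medians of 0.09 and 0.08; the only red points, which passed, are CEACAM5 and CLDN1.

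The 15 genes were next read in the study's other DPPA3 models, whose arrays are separate from the shRNA arrays. In CRISPR clone 66 over the scrambled guide, 1.43% of all genes passed and 4 of the 15 did, each with the opposite sign to the shRNA: A2ML1 (-1.13), PTGDR (-0.92), LY6G6D (0.85) and MYL3 (0.69). In clone 75, 0.619% of all genes passed and 4 of the 15 did. A2ML1 (1.01) and GCNT3 (0.81) were higher there, as with the shRNA, while PLA2G2A (-1.67) and LY6G6D (0.53) had the opposite sign. The clones share their control arrays. For the mean of both clones, PLA2G2A (-1.07) and LY6G6D (0.69) passed, both with the opposite sign, against 0.321% of all genes. Thus none of the 15 genes passed with the shRNA's sign in both clones. The log2 fold changes of LPL and CLDN1 were -0.26 and 0.03 in clone 66 and 0.13 and -0.12 in clone 75.

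The test of the difference itself, the shRNA effect minus the mean clone effect, passed for 14 genes (0.0802%), 10 with a positive and 4 with a negative difference. Its largest positive differences were CST1 (2.31, SE 0.33), PLA2G2A (1.86, SE 0.17), A2ML1 (1.47, SE 0.20) and SPINK1 (1.34, SE 0.24), and its largest negative ones LY6G6D (-1.40, SE 0.14), MYL3 (-1.10, SE 0.16), LPL (-1.04, SE 0.20) and HSD3B1 (-0.92, SE 0.15). SPINK1, a trypsin inhibitor, differed through the clones, where its mean log2 fold change was -1.39 against -0.05 with the shRNA. LPL differed through the shRNA (-1.11 against -0.07). A2ML1 averaged -0.06 over clones that lay on opposite sides of 0, so its difference from the mean does not describe either clone. Of the 15 genes 7 passed this test, and their sign is fixed by how they were chosen. The count was 7 without scrambled guide replicate 2, 9 without scrambled guide replicate 1, 29 in a fit of the shRNA and knockout arrays alone and 41 with array weights.

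In the 5-day induction in 3D, 10 of the 15 genes passed (5.7% of all genes did). Of these, 7 had the opposite sign to the shRNA: PLA2G2A (-3.27), CTSS (1.09), LY6G6D (1.01), MYL3 (0.61), CLDN1 (0.55), PTGDR (-0.50) and APLF (0.48). The other 3 had the same sign, RPE65 (0.62), LPL (-0.67) and RNASE1 (-0.50). After 4 hours of induction in 2D, 6 of the 15 passed (3.13% of all genes did), all with the opposite sign to the shRNA: PLA2G2A (-1.56), CEACAM5 (-0.72), LY6G6D (0.71), CLDN1 (0.62), MYL3 (0.55) and CTSS (0.54). PLA2G2A, LY6G6D, CLDN1, MYL3 and CTSS thus passed in both induction settings with the sign opposite to the shRNA. Of these, PLA2G2A and LY6G6D also passed for the mean of the clones, with the sign they had in the induction.

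Set against the induction directly, 431 genes (2.47%) differed in effect, 194 with a positive and 237 with a negative difference (shRNA effect minus induction effect). Of the 15 genes 9 passed, again with a sign fixed by how they were chosen. Most of the largest differences were in genes that passed with induction and not with the shRNA. KIT, the stem cell factor receptor, had log2 fold changes of 3.08 with induction and -0.20 with the shRNA (difference -3.28), and PDE3A, a phosphodiesterase, 2.71 and 0.07 (-2.64). OLFM4, a crypt base glycoprotein (-2.50), and the creatine kinase CKB (-2.31) followed the same pattern, as did NELL2 (2.83) and CYP4X1 (2.37) in the other direction. PLA2G2A (4.06) and CST1 (3.19) were the largest positive differences.

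**Figure D4:**
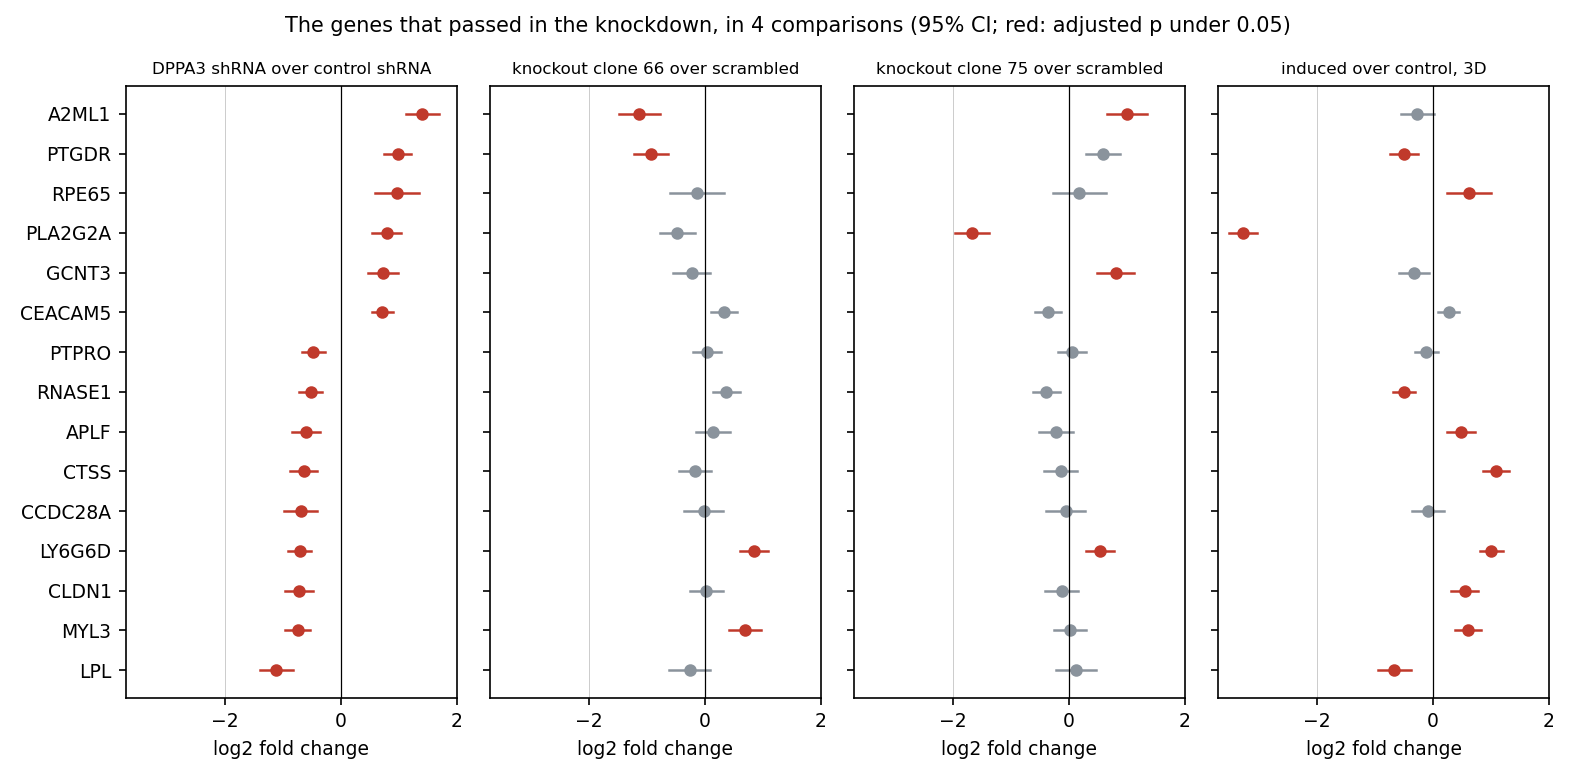
Log2 fold change with its 95% CI (bars) of the 15 genes in 4 comparisons, 1 panel each; red marks an adjusted p under 0.05 over all genes. LY6G6D lies left of 0 in the shRNA panel (-0.71) and right of 0 in the other 3, and PLA2G2A lies right of 0 in the shRNA panel (0.79) and reaches -3.27 with 5 days of induction.

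The genes were also read on all 24 arrays. For A2ML1 and RPE65 every DPPA3 shRNA array lay above all 18 arrays of the other experiments, where A2ML1 ran from 2.89 to 5.67 and RPE65 from 4.17 to 5.44. For LY6G6D, CLDN1 and CCDC28A every DPPA3 shRNA array lay below all 18, where they ran from 7.88 to 9.60, 4.96 to 5.87 and 4.48 to 5.21. For none of the 15 genes did all 3 control shRNA arrays lie outside the range of the other 18. For the other 10 genes at least 1 DPPA3 shRNA array lay inside that range.

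The scrambled guide line is the study's other untreated 3D control, so the 2 control lines were compared. Their experiments differ too, and experiment and line cannot be told apart. The control shRNA line differed from the scrambled guide line for 51 genes (0.292%). Of the 15 genes 4 passed there: CEACAM5 (-0.95, limma adjusted p = 7.2e-06), PTGDR (-0.59, 0.044) and CTSS (-0.56, 0.047) were lower and LPL (0.73, 0.035) higher in the control shRNA line. For 8 genes, namely A2ML1, RPE65, PTPRO, RNASE1, CTSS, CCDC28A, LY6G6D and MYL3, the scrambled guide mean lay closer to the control shRNA mean. For the other 7, PTGDR, PLA2G2A, GCNT3, CEACAM5, APLF, CLDN1 and LPL, it lay closer to the DPPA3 shRNA mean. For PLA2G2A (distances of 0.39 and 0.40) and CLDN1 (0.36 and 0.36) it lay about midway, so these 2 favour neither line. CEACAM5 shows the second kind: its mean was 9.38 with the scrambled guide, 9.14 with the DPPA3 shRNA and 8.42 with the control shRNA. LPL was 3.62, 3.24 and 4.34 in the same order. A2ML1 shows the first kind, at 4.55 with the scrambled guide, 4.44 with the control shRNA and 5.85 with the DPPA3 shRNA. These comparisons use the shRNA arrays that chose the genes, and they describe levels only.

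**Figure D5:**
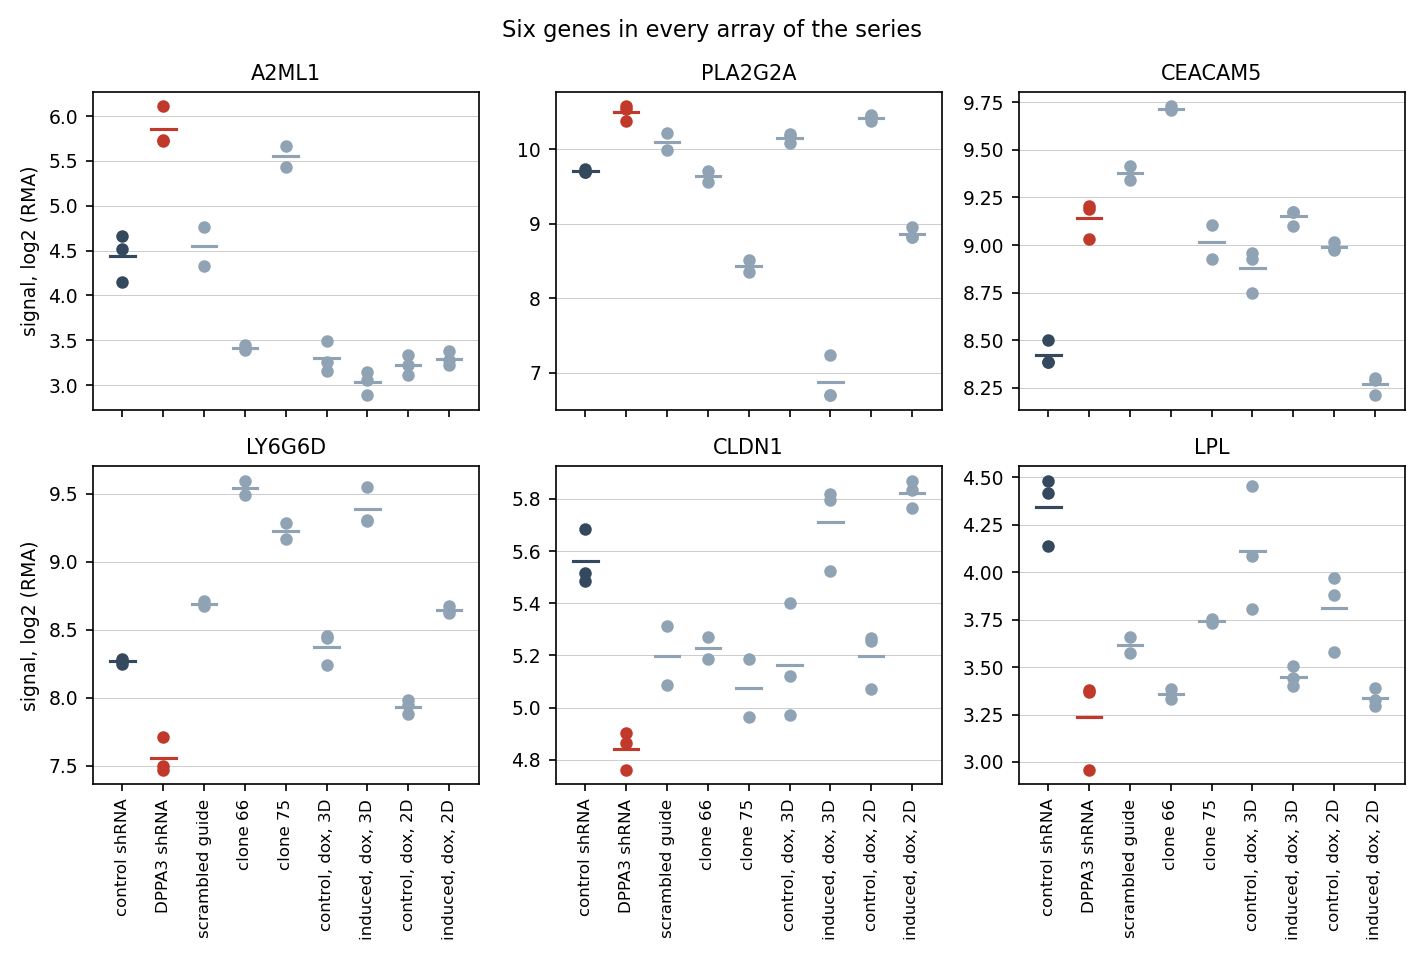
Log2 signal of 6 of the genes on all 24 arrays, 1 point per array and a bar at each group mean, with the control shRNA (dark blue) and DPPA3 shRNA (red) arrays first. A2ML1 is highest and LY6G6D and CLDN1 lowest on the DPPA3 shRNA arrays, whereas all 3 of those arrays for CEACAM5, and the higher ones for LPL, lie within the range of the other experiments.

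Shifts shared by neighbouring genes were described as running medians. Over 8712 genes above the median level, ordered along the chromosomes by the RefSeq table, the running median of the shRNA comparison over 21 neighbours lay between -0.23 (PSMC2 to IFRD1) and 0.16 (NUCKS1 to PROX1). The same measure reached 0.88 (MAOA to TBC1D25) in clone 66, -0.69 (ST8SIA6 to BAMBI) in clone 75, and 0.60 (FAR1 to PRMT3) and -0.62 (PARD3 to TFAM) in the 5-day induction. Of the genes previously seen to mark lines and clones in this study, 18 in a list chosen on these arrays, PLA2G2A passed, 5 were higher and 1 lower at an unadjusted p under 0.05, and the median was -0.06. Since that list was chosen on these samples, its count is no independent evidence.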

How the data were processed

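Trizol-extracted total RNA was made into biotin-labelled cRNA for Affymetrix arrays, per the labels. What the authors deposited is a table of log2 values, and the submitters' processing notes name Partek 6.6 and RMA as its tools. RMA subtracts background, brings the arrays to a common distribution and combines the probes of each set, which can shrink shifts shared by most genes. No source used here names the genome build of the probe sets. Of 20276 probe sets in the table, 18062 had a single symbol in the platform annotation. The 1288 with several symbols and the 926 with none were left out. Of a gene's several probe sets (468 genes), the one with the highest mean was taken, which left 17448 genes.

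All 24 arrays entered one limma 3.58.1 fit (R 4.3.3) with a mean for each group, 15 residual and 9.81 prior degrees of freedom. Fold changes are differences of group means on the log2 scale. Simulated data of this design had 200 changed genes among 17448. Changes of 0.5 log2 were recovered in 63% and changes of 1 log2 in 100%, with 10 false calls among 173. Only 15 genes passed in the data, so the adjusted threshold was stricter there and the 63% may overstate what was recovered. The genes named are those that passed, 8 genes of interest (DPPA3 and UHRF1, HIF1A and VEGFA, DNMT1, MKI67, CDKN1A, LGR5), the highest and lowest member of each list, and the 4 highest and 4 lowest differences of effects. Any other gene named was chosen after its values were seen. The comparison, the lists and the alternatives were chosen with earlier results of these data known. Promoter windows came from RefSeq. The alternatives varied the arrays fitted, a replicate block, the probe sets, a filter on level, the variance prior, array weights and quantile normalization, and left out each array in turn.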

Additional observations from a re-analysis of the deposited data

Results flagged for a closer look

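The effect of the shRNA differed from the mean effect of the CRISPR clones, by the limma test of the difference itself, for 14 genes. Among the 4 highest and 4 lowest, the difference was 2.31 log2 units for CST1, 1.86 for PLA2G2A, 1.47 for A2ML1 and 1.34 for SPINK1, and -0.92 for HSD3B1, -1.04 for LPL, -1.10 for MYL3 and -1.40 for LY6G6D. In CST1 the shRNA effect was 1.002 and the clone effects were -0.26 for clone 66 and -2.34 for clone 75. In HSD3B1 they were -0.48, 1.004 and -0.13. In SPINK1 they were -0.05, -2.28 and -0.51. The 2 clones and their control had 2 arrays each, and each clone is 1 line.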

How the results depend on the processing

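The count of 15 genes between the shRNA groups was 12 when only the 6 shRNA arrays were fitted, 14 with the replicate block (12 shared), 18 over genes above the median level, 18 with a trended and robust prior, 21 after repeated quantile normalization, 17 sets over all 20276 probe sets (an alternative chosen after seeing the data, where the 2 further sets were LY6G6D, 1 of them with the same values as the set tested) and 26 with array weights. It ran from 8 to 12 with 1 array left out. The 14 genes that differed between the shRNA and mean knockout effects became 29 with only those experiments' arrays, 41 with array weights, 10 with the replicate block, and 7 to 14 with 1 array left out. The 431 that differed between the shRNA and 3D induction effects ranged from 319 to 593 over the alternatives, with 405 under the replicate block. DPPA3's fold change changed sign with 1 array left out (-0.1704 to 0.08033), and so did those of HIF1A (-0.03623 to 0.07847), CDKN1A (-0.0432 to 0.2445), ACTA2 (-0.00621 to 0.1873) and CD3E (-0.08221 to 0.002115), none past the threshold; the cause was not tested. Deviations from the group means correlated at r = -0.04, 0.039 and 0.168 between same-numbered arrays of the shRNA groups. Between differently numbered arrays r ran from -0.17 to 0.125. With so few arrays these values cannot show whether the numbers pair the samples. Under the replicate block PTPRO, CTSS and CCDC28A missed the threshold while CST1 and UCA1 passed. Of 490 values of list medians under the alternatives, 469 moved by less than the spread between replicates and 21 by more. With 3 arrays a group, the simulation found 63% of the genes changed by 0.5 log2. It planted 200 changed genes. With fewer changed genes the adjusted threshold is stricter, so the share found in the data may be lower. The 2214 probe sets with several symbols or none held no further set that passed (90, or 4.07%, at an unadjusted p under 0.05).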
